A study of Sus scrofa with 2 samples.

Results

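EHD3-negative endothelial nuclei were the nuclei of pig renal cortex that carried transcripts of endothelial genes and no transcript of EHD3. A nucleus was a member if its barcode had 500 to 6000 detected genes, if FLT1, PTPRB, TEK, EMCN and ADGRL4 together had at least 4 unique molecular identifiers (UMIs, each standing for 1 captured RNA molecule) and at least 15 of 10000 UMIs, and if EHD3 had none. Nuclei with 30 or more of 10000 UMIs from the proximal tubule receptors LRP2 and CUBN, with 20 or more from the thick limb transporter SLC12A1, or with any UMI of the leukocyte gene PTPRC were left out. This gave 2043 members among 12955 nuclei, 1198 of 7035 (17.0%, 95% binomial interval 16.2 to 17.9) in the unperfused library and 845 of 5920 (14.3%, 13.4 to 15.2) in the perfused library. These genes chose the members, so their levels are given as a description only.

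The study compared ex vivo perfused with unperfused renal cortex by single-nucleus RNA sequencing (snRNA-seq), with 1 library for each condition. Kidneys came from slaughtered pigs and were flushed and kept at 4 °C for about 2 h. Cortex was taken ahead of perfusion for the unperfused sample and 120 min into perfusion at 37 °C and 100 mmHg for the perfused sample. The setting was meant to raise pressure and filtration in the glomeruli. The perfusate was a balanced salt solution to which no albumin or red blood cells were added. Pressure, perfusate, warming and time cannot be told apart in this design. No genotype, strain, age or sex was used to group the samples, and no number of animals is given for them in the sources used here. Tissue of both conditions was frozen before nuclei were isolated, and a piece of cortex holds peritubular, glomerular and larger vessels together. The unperfused library held 34415254 UMIs in 7179 barcodes and the perfused library 35525592 in 6205. With 1 library per condition no difference has a replicate check and no test was made between conditions. The intervals given are exact 95% intervals of counting error alone.

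Endothelial cells of the kidney differ from vessel to vessel. Glomerular capillaries carry open fenestrae, and EHD3, an ATPase that shapes and recycles endosomal membranes, is known as a marker of them. Peritubular capillaries and ascending vasa recta carry fenestrae closed by diaphragms that are built from PLVAP, while arteries, arterioles and descending vasa recta have a continuous lining.

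Members had a median of 1915 UMIs and 1226 genes in the unperfused and 2190 UMIs and 1271 genes in the perfused library, fewer UMIs than proximal tubule nuclei (medians 5596 and 6982.5). Their summed counts, on which all levels below rest, were 2768249 and 2265896 UMIs. Mitochondrially encoded genes took 0.172% (unperfused) and 0.429% (perfused) of their UMIs, against 0.115% and 0.294% over all nuclei. The 18S ribosomal RNA locus RN18S stood at 769 and 233 UMIs per 1000000 UMIs (CPM), against 467 and 207 over all nuclei. No barcode was shared by members of both libraries, and 14 were shared by any barcodes of the files.

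The endothelial label held for most markers that the rule did not use. PECAM1, an adhesion receptor at endothelial contacts, had a UMI in 83.6% (unperfused) and 81.8% (perfused) of members, against 26.7% and 28.4% of proximal tubule nuclei, which should lack it and had more UMIs each. EGFL7, a secreted vascular protein, was detected in 78.5% and 81.4% of members against 8.83% and 10.0% of proximal tubule nuclei. RASGRF2, a Ras exchange factor, was detected in 68.6% and 67.8%, and DYSF, a membrane repair protein, in 77.7% and 76.0%, whereas tubule nuclei had RASGRF2 in 5.41% and 6.95% and DYSF in 8.14% and 8.13%. KDR, the main signalling receptor for VEGF, was detected in 67.0% and 61.3%, and CDH5, the cadherin of endothelial junctions, in 32.8% and 28.2%. Of 20 endothelial identity genes outside the rule 19 had UMIs in members of both libraries, and RASIP1 was at 0 in both. Summed, they stood at 8961 and 9470 CPM in members and at 355 and 346 CPM in proximal tubule nuclei.

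Markers of other cell types were present beside them. The 15 stromal markers (for fibroblasts, pericytes and mesangial cells) summed to 605 CPM in members of the unperfused library and to 1500 CPM in the perfused library. ITGA8 led in the unperfused (148 CPM) and KCND3 in the perfused library (222 CPM). ITGA8 was not particular to other cell types, since EHD3-positive endothelial nuclei had it at 1244 and 1440 CPM. Its part of these sums therefore need not come from stromal cells. The 14 immune markers summed to 88.5 and 272 CPM, with SKAP1 highest and MS4A1 at 0 in both libraries. The 15 markers of the loop and distal tubule summed to 2835 and 2061 CPM, of which the sodium calcium exchanger SLC8A1 alone gave 1999 and 1470. The 10 proximal tubule markers summed to 805 and 668 CPM and the 6 podocyte markers to 108 and 100.2. The share of members' UMIs that free tubule RNA could account for, from the tubule markers without SLC8A1, was estimated at 24.3% and 20.1%, and with SLC8A1 at 44.4% and 36.7%.

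A count of 0 for EHD3 depended on depth. Among all nuclei that passed the endothelial gate, EHD3 was detected in 3.53% of those with fewer than 1500 UMIs, 5.58% of those with at least 1500 but under 3000 and 9.55% of those with 3000 or more in the unperfused library. The same shares were 3.09%, 8.05% and 11.1% in the perfused library. EHD3 was also sparse where it was found, with a single UMI in 49 of 73 EHD3-positive nuclei of the unperfused and 46 of 73 of the perfused library. Proximal tubule nuclei, as a background, had an EHD3 UMI in 0.866% and 0.336%. Members were 94.3% (92.8 to 95.5) and 92.0% (90.1 to 93.7) of gated endothelial nuclei, and some of them may lack EHD3 only at this depth.

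At the edge of the endothelial gate, 33 unperfused and 43 perfused members had exactly 4 UMIs of the 5 gate genes, and 24 and 34 nuclei were left out for want of 1 UMI. The typical member lay far from the edge, with a median of 15 UMIs (75.9 of 10000) in the unperfused and 17 UMIs (74.2 of 10000) in the perfused library.

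The members fell into 10 subclusters when clustered on variable genes other than those of the rule, with each library scaled by itself. The leading genes of a subcluster defined it and are given only to say what it is. Subcluster 0, with 1011 nuclei, led with DGKI, RAB38, XYLT1, LRRC3B and GRM5, had no raised list of vessel markers and was left unnamed. Subcluster 1 (320 nuclei) was venous-like by NR2F2, a venous fate factor, TLL1 and VWF. Subclusters 3 (150 nuclei, with SOX17, GJA4, CXCL12 and 3 more of 16 markers) and 8 (32 nuclei, 12 of 16 markers, among them GJA5, HEY1, DLL4 and EFNB2) were arterial-like. Subcluster 4 (136 nuclei) had 4 glomerular markers (PLAT, TBX3, GATA5 and NOSTRIN) and as many arterial ones (GJA5, GJA4, DLL4 and VEGFC), so it took neither name. Subcluster 5 (60 nuclei) had 6 of 8 genes of cell division, among them TOP2A, TPX2 and DIAPH3.

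The other 4 subclusters had raised markers of other lineages, which go against a plain endothelial label. In subcluster 2 (225 nuclei) 14 of 15 stromal, 6 of 14 immune and 3 of 10 proximal tubule markers (SLC5A12, SLC22A8 and PCK1) were raised over the other members. KCND3, SPON1, C7, CYP7B1 and GUCY1A2 were in the lead. Its nuclei had a median of 9 UMIs of the gate genes, against 16 in subcluster 0, and 1.09% mitochondrial UMIs. Subcluster 6 (51 nuclei) had 7 of 15 markers of the loop and distal tubule and subcluster 9 (19 nuclei) had 5, those of intercalated cells such as SLC26A4 and ATP6V1C2. Subcluster 7 (39 nuclei) had 4 stromal and 4 podocyte markers. Scrublet, which scores barcodes against simulated pairs of nuclei, called 94.1% of subcluster 6, 78.9% of subcluster 9, 48.7% of subcluster 7 and 4.89% of subcluster 2 as doublets, and none of the nuclei of the other 6 subclusters.

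**Figure D1:**
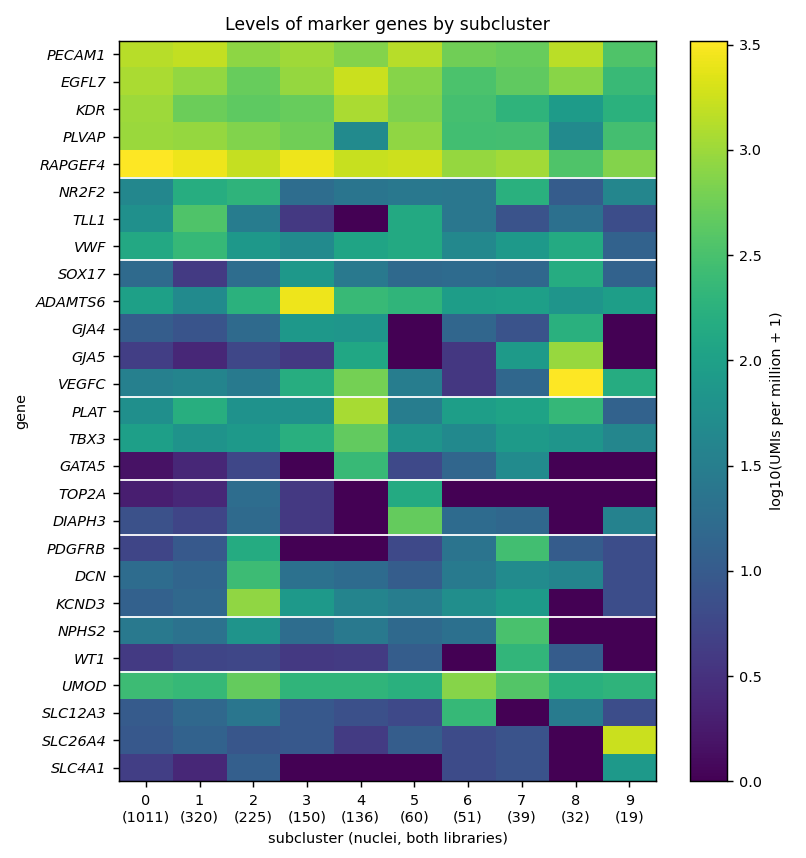
Level of 27 marker genes (vertical axis) in each subcluster of EHD3-negative endothelial nuclei (horizontal axis, number of nuclei in parentheses), as log10 of CPM plus 1, summed over both libraries. White lines part the genes, from the top, into endothelial, venous, arterial, glomerular, cycling, stromal, podocyte and tubule markers. PLVAP is low in subclusters 4 and 8, PLAT and GATA5 are high in subcluster 4, and KCND3, DCN and PDGFRB are high in subcluster 2.

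The makeup of the members differed between the libraries. Subcluster 0 held 51.3% (48.5 to 54.2) of unperfused and 46.9% (43.5 to 50.3) of perfused members, the venous-like subcluster 17.0% (14.9 to 19.3) and 13.7% (11.5 to 16.2), and subcluster 4 6.34% (5.03 to 7.88) and 7.10% (5.46 to 9.05). Subcluster 2 held 5.43% (4.21 to 6.86) of unperfused and 18.9% (16.3 to 21.7) of perfused members. The cycling subcluster held 4.09% (3.04 to 5.37) and 1.30% (0.652 to 2.32), 49 and 11 nuclei. Subclusters 2, 6, 7 and 9 together held 141 of 1198 unperfused (11.8%, 10.00 to 13.7) and 193 of 845 perfused members (22.8%, 20.05 to 25.8). A subcluster mostly of 1 library may be that library and not a kind of cell, and these shares have no replicate.

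**Figure D2:**
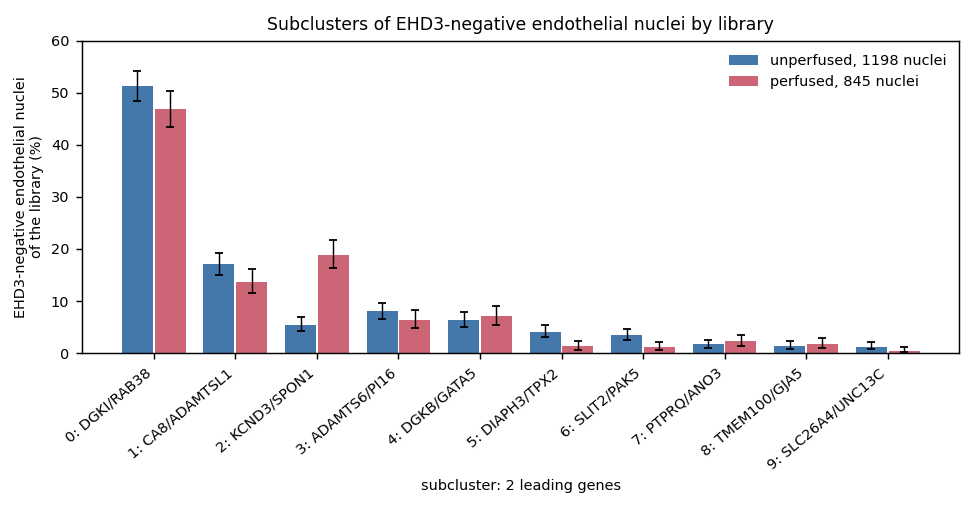
Share of the EHD3-negative endothelial nuclei of each library (vertical axis, percent) that fell into each subcluster (horizontal axis). Bars show the unperfused and the perfused library and error bars the exact 95% binomial interval, which covers counting error only. Subcluster 2 was larger in the perfused library (18.9% against 5.43%) and the cycling subcluster 5 in the unperfused library (4.09% against 1.30%).

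The 1709 nuclei outside subclusters 2, 6, 7 and 9 (1057 unperfused with 2138729 UMIs and 652 perfused with 1554697) are called vessel members below. This set was chosen after the subclusters had been seen, and it leaves out 334 nuclei. In vessel members the stromal markers summed to 296 and 361 CPM, of which ITGA8 alone gave 130 and 147, and the immune markers to 44.4 and 68.8 CPM. Their share of free tubule RNA was estimated at 17.4% and 12.9% without SLC8A1, and at 31.0% and 31.9% with it.

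EHD3-negative and EHD3-positive endothelial nuclei were compared within each library, which asks how the members differ from the nuclei of the same gate that carried the glomerular marker. The EHD3-positive class had 73 nuclei in each library, with 183217 and 228447 UMIs. Genes whose summed count was at least 100 in each library were described, and a gene was counted as past the fold if its log2 ratio was beyond 1.5-fold and its interval left out 0 in both libraries. Of 4594 genes described, 199 (4.33%) were higher and 110 (2.39%) lower in EHD3-negative nuclei. Without the 334 nuclei of subclusters 2, 6, 7 and 9, 201 were higher and 98 lower, and the 20 genes named by rule kept their direction in both libraries. The ratios below are those of all members. EHD3 alone divided the classes, so genes that vary with it carry part of the rule.

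The diaphragm protein PLVAP was higher in EHD3-negative nuclei. It stood at 719 CPM in EHD3-negative and 175 CPM in EHD3-positive nuclei of the unperfused library and at 736 and 228 CPM in the perfused library, log2 ratios of 2.04 (1.54 to 2.59) and 1.69 (1.30 to 2.12). PLVAP was detected in 68.0% and 69.8% of members and in 16.4% and 27.4% of EHD3-positive nuclei. Of 10 peritubular markers 7 were described, and 3 of them were higher in EHD3-negative nuclei. Beside PLVAP these were SLCO2A1, a prostaglandin transporter, with log2 ratios of 1.12 (0.67 to 1.60) and 2.74 (2.16 to 3.39), and RGCC, a cell cycle regulator, with 1.37 (0.84 to 1.97) and 1.15 (0.72 to 1.61). The peritubular marker IGFBP5, which binds insulin-like growth factors, was lower in EHD3-negative nuclei, with 1187 against 4994 CPM in the unperfused and 937 against 2924 CPM in the perfused library.

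The genes that separated the classes most toward EHD3-negative nuclei had few UMIs in EHD3-positive ones. XYLT1, which starts glycosaminoglycan chains on proteoglycans, stood at 1090 against 191 CPM in the unperfused and 1396 against 245 CPM in the perfused library, a log2 ratio of 2.51 in both (2.03 to 3.04 and 2.13 to 2.92). LRRC3B, a leucine-rich repeat protein, had ratios of 2.78 and 2.47, and DGKI, a diacylglycerol kinase, 2.62 and 2.55. SCARB1, a receptor for high-density lipoprotein, had 2.19 and 2.82, CDH13, a cadherin held by a lipid anchor, 2.81 and 2.29, and EPHA4, an ephrin receptor, 2.93 and 2.28. The rule for named genes also gave MATN2, GRIN3A, PTGIS and VIM, each with 1 to 4 UMIs in the EHD3-positive nuclei of each library, and their ratios have wide intervals. MATN2, a matrix protein, had 222 UMIs against 1 and 173 against 1, ratios of 3.88 (1.38 to 9.19) and 4.12 (1.63 to 9.44). PTGIS, the prostacyclin synthase, had 317 UMIs against 4 and 260 against 1, ratios of 2.39 (1.02 to 4.28) and 4.71 (2.22 to 10.02).

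Both paralogs of EHD3 that were described were higher where EHD3 was 0. EHD4 stood at 729 against 235 CPM in the unperfused and 841 against 201 CPM in the perfused library, ratios of 1.63 (1.20 to 2.11) and 2.06 (1.64 to 2.52). EHD2, which sits at the neck of caveolae, had 203 UMIs against 5 and 199 against 4, ratios of 1.43 (0.18 to 3.06) and 2.33 (0.95 to 4.22). Of 21 basement membrane and integrin genes described 4 were higher and 1 lower in EHD3-negative nuclei, beside 4.33% and 2.39% of all genes. The medians of the list were 0.08 and 0.02. The higher ones were HSPG2 (perlecan, 1.23 and 1.45), LAMA4 (2.22 and 1.09) and the integrin subunits ITGA9 (0.66 and 0.97) and ITGB4 (2.39 and 1.48). The Notch ligand JAG1 (2.52 and 1.14), the VEGF co-receptor NRP2 (1.95 and 1.23) and the ligand BMP6 (1.61 and 0.77) were higher too. In their lists 1 of 8 Notch, 1 of 9 VEGF and angiopoietin and 1 of 19 BMP and TGF-beta genes described were higher and none was lower. VWF, which carries factor VIII and tethers platelets, was at 98.3 against 27.3 CPM and at 141 against 83.2 CPM.

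Genes lower in EHD3-negative nuclei included the glomerular markers. All 3 of the 11 that were described were lower, the plasminogen activator PLAT with ratios of -2.57 (-2.85 to -2.28) and -1.95 (-2.23 to -1.66), the transcription factor TBX3 with -2.07 and -1.37, and NOSTRIN, which traffics nitric oxide synthase, with -1.40 and -0.86. GATA5 was detected in 3.76% and 3.43% of members and in 38.4% and 36.99% of EHD3-positive nuclei. DGKB, a diacylglycerol kinase, stood at 82.7 against 1075 CPM in the unperfused and 95.8 against 1099 CPM in the perfused library, ratios of -3.70 (-3.98 to -3.42) and -3.52 (-3.79 to -3.25). AGBL4, a carboxypeptidase of tubulin, had ratios of -3.28 and -3.11, the integrin subunit ITGA8 -3.07 and -3.05, and the calcium channel subunit CACNB2 -2.88 and -3.21. MDGA2 had -2.53 and -2.69, GRIK4 -2.52 and -2.15, RANBP6 -2.06 and -2.02, the alarmin IL33 -2.43 and -1.86, and the sialyltransferase ST6GALNAC3 -1.86 and -1.93. Over all genes described the median ratio was 0.04 (unperfused) and 0.01 (perfused).

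**Figure D3:**
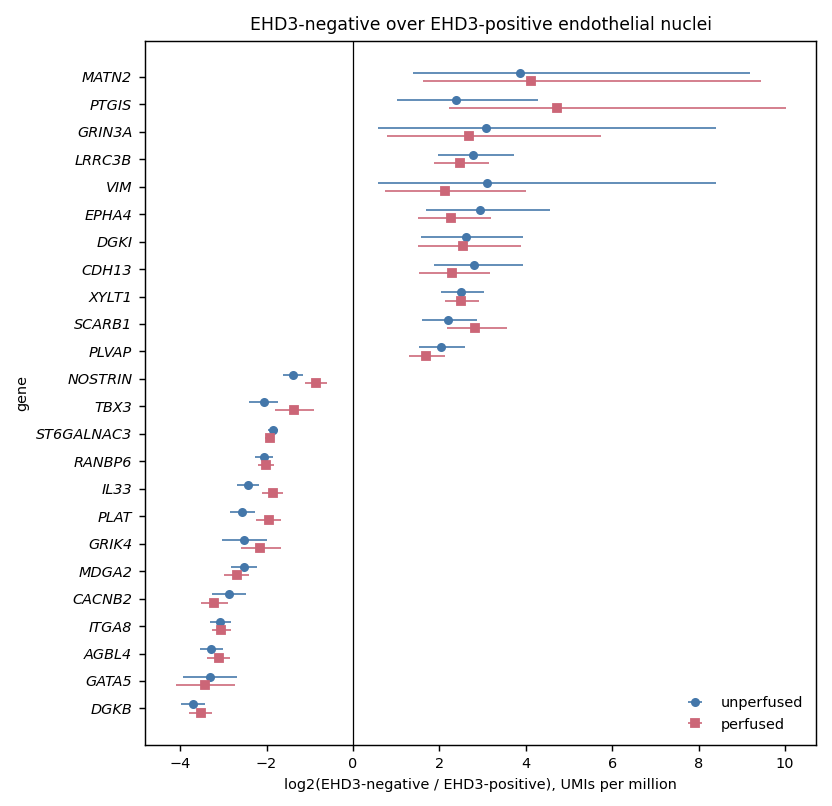
Log2 ratio of CPM in EHD3-negative over EHD3-positive endothelial nuclei (horizontal axis) for the 20 genes of the naming rule with PLVAP, TBX3, NOSTRIN and GATA5 (vertical axis). Circles are the unperfused and squares the perfused library, and lines are exact 95% counting intervals. Every gene plotted has the same direction in both libraries, and wide intervals mark genes with 1 to 5 UMIs in EHD3-positive nuclei of a library.

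Subcluster 4 carried a large part of the members' UMIs of several genes that were lower in EHD3-negative nuclei. It held 136 of 2043 members (6.66%), but 80.5% of their DGKB, 80.6% of their GATA5, 63.0% of their CACNB2, 58.4% of their IL33 and 55.0% of their AGBL4 UMIs, and 365 of their 730 PLAT UMIs. Its share was 47.2% for ITGA8, 44.6% for RANBP6, 39.4% for MDGA2, 31.1% for ST6GALNAC3, 30.04% for GRIK4, 27.1% for TBX3 and 12.4% for NOSTRIN. DGKB, GATA5, CACNB2, IL33 and AGBL4 led the subcluster, and the others are not among its 5 leading genes, but all come from the nuclei that were clustered, so the shares are a description. Set beside EHD3-positive nuclei, which took no part in the clustering, it stood at a like level for DGKB (1129 CPM, 1015 to 1252, against 1088, 990 to 1194), AGBL4 (950, 846 to 1063, against 1001, 906 to 1102) and CACNB2 (692, 603 to 790, against 600.0, 528 to 680). The levels of ITGA8, MDGA2, GRIK4, TBX3, GATA5 and NOSTRIN also had intervals that overlapped those of EHD3-positive nuclei. Subcluster 4 stood above EHD3-positive nuclei for IL33 (1874, 1727 to 2031, against 896, 807 to 993), RANBP6 (2283, 2120.0 to 2455, against 1329, 1219.7 to 1445), PLAT (1148, 1033 to 1272, against 692, 614 to 778) and ST6GALNAC3 (5704, 5445 to 5973, against 4382, 4182 to 4589). Some of these levels were not particular to subcluster 4. The arterial-like subcluster 8 stood at 2158 (1886 to 2457) for IL33, 2557 (2260 to 2881) for RANBP6 and 656 (510 to 830) for MDGA2. For DGKB it stood at 57.0 (20.9 to 124). Subcluster 7 was at 1306 (1126 to 1506) for ITGA8. PLVAP was at 47.2 CPM (26.4 to 77.8) in subcluster 4 and at 204 CPM (163 to 253) in EHD3-positive nuclei. Subcluster 0, with 49.5% of members, held 54.0% of their PLVAP UMIs and 72.9%, 65.3% and 64.2% of those of DGKI, XYLT1 and LRRC3B, which led it. Its share was 47.6% for MATN2, 47.0% for EPHA4, 46.7% for SCARB1, 38.3% for PTGIS, 36.1% for CDH13, 35.3% for GRIN3A and 18.2% for VIM. A share of UMIs also depends on the UMIs of each nucleus. By level, subcluster 0 stood at 656 CPM for SCARB1, against 550 (unperfused) and 587 (perfused) over all members. For MATN2 it was at 92.7 against 80.2 and 76.3, and for EPHA4 at 279 against 208 and 276. PTGIS, CDH13, GRIN3A and VIM were below the levels of both libraries.

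The comparison of perfused with unperfused cortex asks which transcripts of these nuclei differ after perfusion. A gene with at least 100 UMIs over both libraries was described, and it was past the fold if its CPM differed by more than 1.5-fold with a counting interval without 0. Over all members 7294 genes were described, of which 298 (4.09%) were higher and 565 (7.75%) lower with perfusion, and the median log2 ratio was -0.06. Over vessel members 5881 were described, of which 128 (2.18%) were higher and 443 (7.53%) lower, with a median of -0.07. Scaling by TMM moved every ratio of the vessel members up by 0.15, and the counts were then 331 higher (5.63%) and 222 lower (3.77%). With equal weight for each vessel subcluster 295 of 6042 were higher (4.88%) and 637 lower (10.5%), with free RNA subtracted 158 of 5094 (3.10%) and 443 (8.70%), and in nuclei with 3000 or more UMIs 102 of 2037 (5.01%) and 117 (5.74%). For all members TMM moved every ratio by 0.11 and gave 439 higher and 365 lower. The split between higher and lower genes depended on the scaling, and a single ratio near 1.5-fold can pass or miss.

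The genes highest in the perfused library over all members were genes of the nuclei that vessel members leave out. DCN, a proteoglycan of connective tissue, had 62 and 186 UMIs (22.4 and 82.1 CPM), which is 1.87 (1.45 to 2.31) on the log2 scale, while vessel members held 30 and 30, a ratio of 0.46 (-0.32 to 1.24). FBLN1, a matrix protein, had a ratio of 1.90 over all members and of -0.09 (-1.23 to 1.01) in vessel members. GUCY1A2, a subunit of the nitric oxide receptor, had 2.24 and 0.57, and KCND3, a potassium channel, 1.86 and 0.64, with intervals that held 0 in vessel members. ADCY5, SVEP1 and NR2F1 also had intervals with 0 in vessel members, while FBLN5 (0.84, 0.34 to 1.36) and RUNX1 (1.46, 0.55 to 2.42, from 16 and 32 UMIs) did not. FBLN5 was at 0.12 with equal weight for vessel subclusters and at -0.02 in vessel members with 3000 or more UMIs. ST6GALNAC5 had the largest ratio (3.65, from 11 and 113 UMIs), but 27 of its perfused UMIs came from 1 nucleus and vessel members held 4 and 4.

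The values of several gene lists differed with and without the same 334 nuclei. Those nuclei were left out for stromal, podocyte and tubule markers. A fall of the stromal list, and of genes shared with it, therefore follows from the choice and is a description only. Beside the counts below stand the shares of all genes described. These were 4.09% higher and 7.75% lower over all members, and 2.18% and 7.53% in vessel members. Of the stromal markers 13 of 14 described were higher over all members, with a median ratio of 1.47, and 0 of 2 described in vessel members. Of the MRTF-SRF targets, genes of actin and contraction that respond to mechanical load, 9 of 24 were higher and 1 lower over all members (median 0.28). In vessel members 2 of 17 were higher and 1 lower (median 0.03). There 1 of 16 was higher with free RNA subtracted, 1 of 17 without the richest nucleus of each gene, and 0 of 8 in nuclei with 3000 or more UMIs. Smooth muscle actin ACTA2 (1.496), TPM2 (1.16), TAGLN (1.13), FHL2 (1.40) and CCN1 (0.97) were past the fold over all members and had too few UMIs to be described in vessel members, and ACTA2, TAGLN and FHL2 are also among the stromal markers. Beta-actin ACTB stood at 91.8 and 158 CPM over all members (0.79, 0.55 to 1.03) and at 91.6 and 99.7 CPM in vessel members (0.12, -0.19 to 0.43). TPM1, a tropomyosin, had 0.72 over all members and -0.17 (-0.64 to 0.29) in vessel members. Ribosomal protein genes were higher in 25 of 60 over all members (median 0.54). In vessel members 0 of 59 were higher and 4 lower (median -0.19), and these 4 (6.78%) are near the 7.53% of all genes. Of 10 mitochondrially encoded genes 8 were higher and none lower over all members (median 1.49), and 3 were higher and 2 lower in vessel members (median 0.39). With free RNA subtracted none was higher and 2 were lower in vessel members (median 0.14), beside 3.10% and 8.70% of all genes. With TMM 5 were higher and 1 lower, beside 5.63% and 3.77% of all genes.

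**Figure D4:**
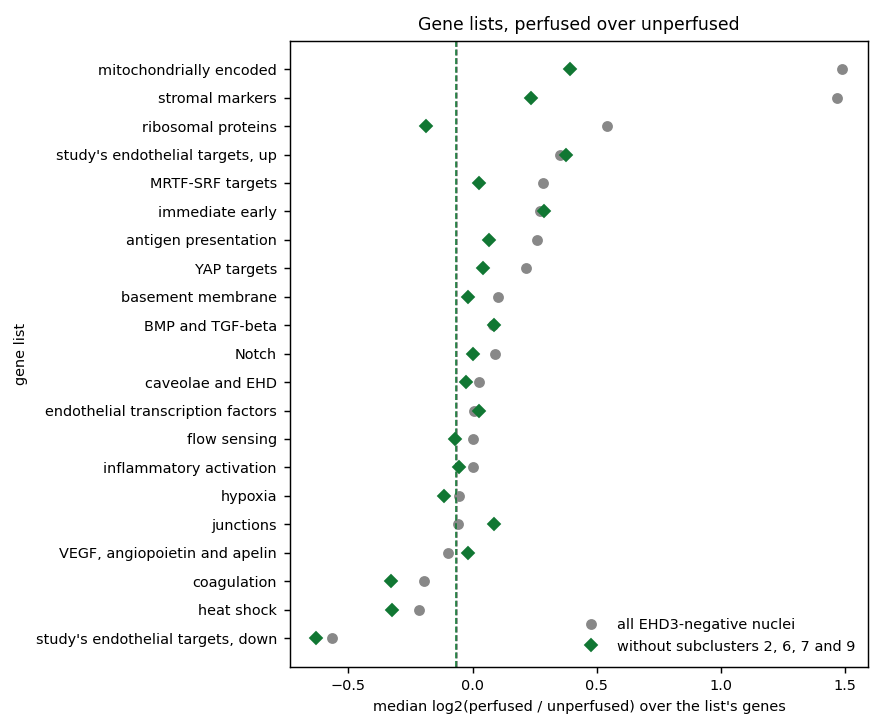
Median log2 ratio of perfused over unperfused CPM (horizontal axis) over the described genes of each list (vertical axis). Circles are all EHD3-negative endothelial nuclei, diamonds the nuclei outside subclusters 2, 6, 7 and 9, and the dashed lines the medians of all genes described (-0.06 and -0.07). Without these subclusters the stromal, ribosomal protein, mitochondrially encoded and MRTF-SRF lists come nearer to the dashed lines, and only 2 stromal markers are then described. The subclusters were left out for stromal, podocyte and tubule markers, so the move of the stromal list, and of MRTF-SRF genes shared with it, follows from that choice.

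In vessel members most markers of endothelial identity stood at like levels in both libraries. The markers given with the rule that are not genes of its gate had ratios of 0.04 (DYSF), 0.16 (RASGRF2) and 0.36 (EGFL7). Of 18 identity genes described, VWF alone was higher and none was lower, beside 2.18% and 7.53% of all genes. VWF stood at 110 CPM (unperfused) and 180.1 CPM (perfused), a ratio of 0.71 (0.46 to 0.97), and at 0.56 to 0.87 over the settings tried. In nuclei with 3000 or more UMIs it was inside 1.5-fold (0.56). Its ratio was positive in subcluster 0 (0.69, 0.33 to 1.05) and in the venous-like subcluster (0.84, 0.37 to 1.32), and was -0.45 (-2.31 to 1.15) in the arterial-like subcluster 3, from 12 and 5 UMIs.

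Most receptors and ligands of VEGF and angiopoietin that were described lay inside 1.5-fold. Of 9 genes described 1 was higher (11.1%, beside 2.18% of all genes) and 2 were lower (22.2%, beside 7.53%). With equal weight for subclusters none was higher and 3 were lower, beside 4.88% and 10.5% of all genes. Without the richest nucleus of each gene none was higher and 2 were lower. KDR stood at 859.9 and 821 CPM (-0.07, -0.17 to 0.04), TIE1 at 250.1 and 252 CPM (0.01, -0.18 to 0.20) and NRP1 at 1129.6 and 1247 CPM (0.14, 0.06 to 0.23). The semaphorin receptor PLXND1, which also takes part in sensing flow, stood at 164 CPM (unperfused) and 94.6 CPM (perfused), a ratio of -0.80 (-1.08 to -0.51), with -0.98 to -0.64 over the settings. It was negative in the 5 largest vessel subclusters, positive in subcluster 8 with an interval of -2.21 to 4.06, at -1.08 (-2.37 to 0.13) in EHD3-positive nuclei and at 0.09 (-0.15 to 0.34) in nuclei outside the endothelial gate. The apelin receptor APLNR had 87 and 34 UMIs, a ratio of -0.90 (-1.51 to -0.31). The lymphatic growth factor VEGFC had 0.64 (0.42 to 0.86), but -0.01 when each vessel subcluster had the same weight.

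Among 22 genes of flow sensing 16 were described, none higher and 2 lower, PLXND1 and the stretch-gated channel PIEZO1. PIEZO1 stood at 92.6 and 59.2 CPM, a ratio of -0.65 (-1.02 to -0.28). It was negative in each of the 6 vessel subclusters, with an interval without 0 in subcluster 0 alone, and it was -1.46 (-2.70 to -0.32) in EHD3-positive nuclei and -0.89 (-1.15 to -0.63) outside the gate. With TMM the ratio was -0.49, inside 1.5-fold, and 1 flow gene was higher and 1 lower, beside 5.63% and 3.77% of all genes. With equal weight for subclusters 2 of 16 were higher and 3 lower, beside 4.88% and 10.5% of all genes. The list's median was -0.07, the same as over all genes described, and 7 of 16 were above 0. KLF2, a transcription factor induced by laminar flow, had 284 and 236 CPM (-0.27, -0.46 to -0.08), KLF4 68.7 and 48.2 CPM (-0.51, -0.93 to -0.10) and the nitric oxide synthase NOS3 195 and 148 CPM (-0.39, -0.63 to -0.16). These 3, named after their values were seen, were below 0 and inside 1.5-fold. The channel PIEZO2 was at 293 and 299 CPM.

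In BMP and TGF-beta signalling 2 of 20 genes described were higher, beside 2.18% of all genes, and none was lower, while 6 were higher with TMM. SMAD6, which inhibits BMP signalling, stood at 899 CPM (unperfused) and 1443 CPM (perfused), a ratio of 0.68 (0.59 to 0.77). It was positive in each of the 6 vessel subclusters, from 0.18 (-0.04 to 0.41) in the venous-like subcluster to 0.91 (0.54 to 1.29) in subcluster 3, and lay between 0.60 and 0.84 over the settings. In EHD3-positive nuclei SMAD6 was at 1419 and 1484 CPM (0.06, -0.17 to 0.30), and outside the gate its ratio was 0.42 (0.36 to 0.48). The ligand BMP4 had 52 and 65 UMIs, a ratio of 0.78 (0.23 to 1.34), but 0.43 with equal weight for subclusters, where 1 of 19 genes was higher. The inhibitor SMAD7 had 0.47 (0.28 to 0.66), while the BMP target genes ID1 and ID3 had -0.41 (-0.66 to -0.16) and -0.34 (-0.59 to -0.10), all inside 1.5-fold.

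The prostaglandin transporter SLCO2A1 was higher in the perfused library. It stood at 577 and 924 CPM in vessel members, a ratio of 0.68 (0.57 to 0.79), and at 0.45 to 0.84 over the settings. The ratio was inside 1.5-fold with equal weight for subclusters (0.53) and in nuclei with 3000 or more UMIs (0.45). It was positive in all 6 vessel subclusters, from 0.16 (-0.44 to 0.75) in subcluster 4 to 0.81 (0.28 to 1.34) in subcluster 3. In EHD3-positive nuclei it had 41 (unperfused) and 24 UMIs (perfused) (-1.09, -1.88 to -0.33). The diaphragm protein PLVAP was at 816 and 801 CPM (-0.03, -0.13 to 0.08), and RAPGEF4, an exchange factor driven by cyclic AMP, at 2587 and 3127 CPM (0.27, 0.22 to 0.33).

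Of the Notch genes 1 of 8 was past the fold. The target gene HES1 stood at 107 and 56.0 CPM, a ratio of -0.94 (-1.31 to -0.57), negative in 5 vessel subclusters and positive in subcluster 8 (1 and 9 UMIs). With equal weight for subclusters it was -0.54, inside 1.5-fold, and 1 of 10 Notch genes was higher and 1 lower, beside 4.88% and 10.5% of all genes. NOTCH1, NOTCH4, DLL4, JAG1 and RBPJ had ratios between -0.06 and 0.35. Among 16 junction genes the adhesion molecule F11R alone was lower, beside 7.53% of all genes. It had 94.4 and 50.8 CPM (-0.89, -1.29 to -0.51), but its ratio was -0.27 in nuclei with 3000 or more UMIs. CDH5 had -0.29 (-0.52 to -0.06). None of 9 inflammatory genes, among them the adhesion molecule ICAM1 (95.4 and 111 CPM) and the NF-kB inhibitor NFKBIA (161 and 108 CPM, -0.57, -0.85 to -0.30), none of 10 antigen presentation genes and none of 10 hypoxia genes was past the fold. With free RNA subtracted, or without the richest nucleus of each gene, 1 of 9 inflammatory genes was lower, beside 8.70% and 8.46% of all genes. With equal weight 1 of 10 hypoxia genes was lower, beside 10.5%.

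Heat shock and chaperone genes of vessel members were mostly lower or level. Of 18 described in vessel members 4 were lower, above the 7.53% of all genes, and none was higher, with a median of -0.32. Over all members 1 of 18 was lower, beside 7.75% of all genes, and none was higher, with a median of -0.21 and 7 genes above 0. HSPA8, a chaperone of most cells, stood at 196 and 123 CPM (-0.68, -0.93 to -0.43), the endoplasmic chaperone HSP90B1 at 121 and 73.3 CPM (-0.72, -1.05 to -0.39), and DNAJA1 at 82.8 and 50.2 CPM (-0.72, -1.13 to -0.33). HSPA9, of the mitochondrion, had 94 and 39 UMIs (-0.81, -1.39 to -0.26). With TMM the median was -0.17 and 1 of 18 was lower, beside 3.77% of all genes. HSPA8 was then at -0.52, HSP90B1 at -0.56 and DNAJA1 at -0.57. DNAJA1 was at -0.15 in nuclei with 3000 or more UMIs, and with equal weight for subclusters it was at -0.53, HSP90B1 at -0.48, HSPA8 at -1.56 and HSPA9 at -1.18. Under equal weight 6 of 18 were lower, beside 10.5% of all genes, with a median of -0.51. HSPA8 and DNAJA1 were also below 0 outside the endothelial gate (-0.47 and -0.64), whereas HSP90B1 was at -0.02 (-0.11 to 0.07) there.

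Immediate early genes had both directions. Of 6 described 2 were higher and 1 was lower, beside 2.18% and 7.53% of all genes. JUN stood at 57.0 and 105 CPM (0.88, 0.53 to 1.23) and FOS had 47 and 61 UMIs (0.84, 0.26 to 1.42). JUN was at 0.16 in nuclei with 3000 or more UMIs and at 0.58 with equal weight for subclusters. KLF10, an early target of TGF-beta, had 78 and 25 UMIs, a ratio of -1.18 (-1.89 to -0.52).

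Genes that the study listed as endothelial targets raised or lowered with perfusion were chosen on these libraries, so their counts are not independent of them. Of 6 raised targets 2 were past the fold, the actin-binding CALD1 (115 and 190.4 CPM, 0.73, 0.48 to 0.98) and the kinase NUAK1 (206 and 313 CPM, 0.60, 0.41 to 0.79), and all 6 were above 0. Only 1 of 6 was past the fold with free RNA subtracted or with equal weight for subclusters, where NUAK1 was at 0.56 and 0.57, and at 3000 or more UMIs, where CALD1 was at 0.41. The transcription factors FLI1 and ETV6 had 0.40 and 0.33 and LIMCH1 0.30. Of 5 lowered targets 3 were past the fold, MOGAT2, which makes diacylglycerol (-1.499, -1.96 to -1.06), F11R, and the kinase SGK1, which responds to glucocorticoids and salt. SGK1 stood at 269 and 174 CPM (-0.63, -0.84 to -0.42), but at -0.48 with TMM, where 2 of 5 lowered targets were past the fold. IGFBP5 (-0.40) and ID1 (-0.41) were below 0 inside 1.5-fold. MOGAT2 was at -1.15 outside the endothelial gate.

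Of 24 endothelial transcription factors described 1 was higher and 2 were lower, close to the 2.18% and 7.53% of all genes. MECOM had 0.75 (0.62 to 0.88), but 0.35 when the nucleus with most of its UMIs was left out of each library, 2.53 with free RNA subtracted and -0.19 over all members. BCL6B, a repressor of endothelial cells, stood at 108 and 68.8 CPM (-0.65, -0.99 to -0.31), and PRDM1 had 72 and 32 UMIs (-0.71, -1.36 to -0.09), and with TMM both were inside 1.5-fold (-0.50 and -0.56). With equal weight for subclusters BCL6B was at -0.42 and PRDM1 at -1.52, and PRDM1 was at -1.27 in nuclei with 3000 or more UMIs. Among coagulation genes ANXA2, a surface receptor for plasminogen activator, was lower (127 and 66.9 CPM, -0.93, -1.27 to -0.60) and VWF was higher. None of 21 basement membrane and integrin genes was past the fold, while 3 were higher with TMM, and 3 of 22 higher and 2 lower with equal weight for subclusters, beside 4.88% and 10.5% of all genes. Of 11 caveolar and EHD genes 1 was lower, beside 7.53% of all genes. This was CAV2 (-0.60, -1.05 to -0.15), at -0.44 with TMM and -1.23 with equal weight, where 2 of 12 were lower, beside 10.5% of all genes. The steroid enzyme HSD11B2 had -1.43 (-2.16 to -0.75) from 85 and 23 UMIs, but -0.44 in nuclei with 3000 or more UMIs.

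**Figure D5:**
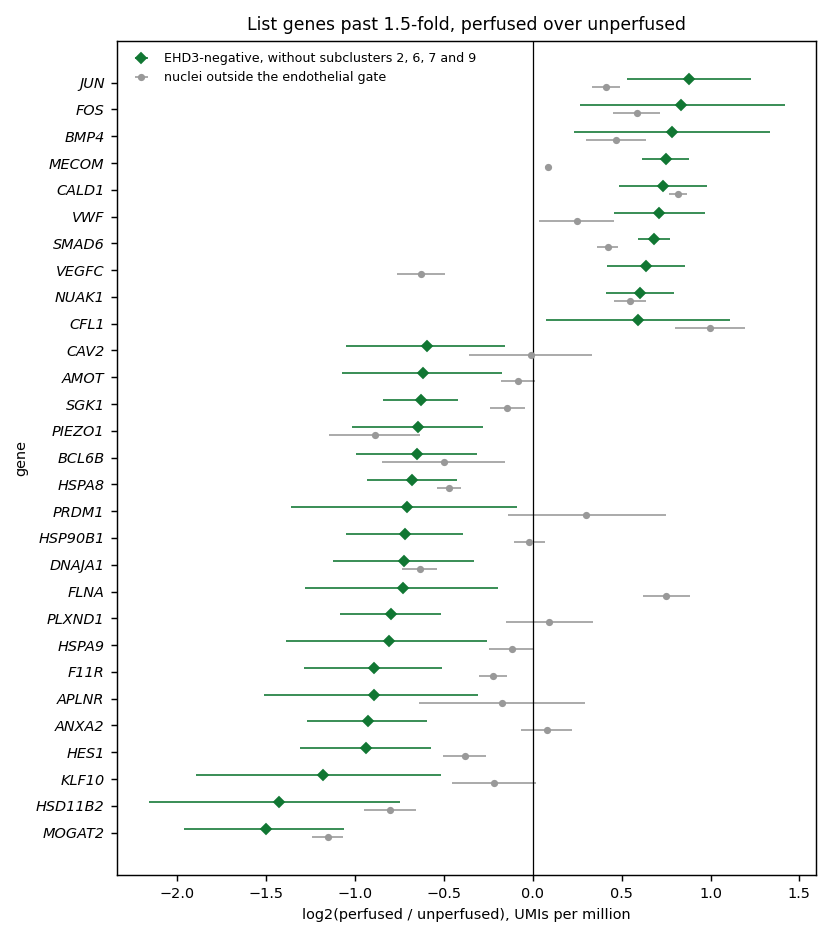
Log2 ratio of perfused over unperfused CPM (horizontal axis) for 29 genes of the described lists that were past 1.5-fold in vessel members (vertical axis). Diamonds are EHD3-negative endothelial nuclei outside subclusters 2, 6, 7 and 9, circles all nuclei outside the endothelial gate, and lines exact 95% counting intervals. SMAD6, CALD1, NUAK1 and CFL1 lie above 0 and PIEZO1, HSPA8, DNAJA1 and MOGAT2 below 0 in both, while FLNA and VEGFC lie on opposite sides of 0.

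Among the largest ratios of vessel members by the naming rule, some rested on few nuclei and some genes were also higher outside the gate. PDE3A, a phosphodiesterase of cyclic AMP and GMP, had 412 and 867 UMIs (1.53, 1.36 to 1.71), of which 284 and 645 lay in the 32 nuclei of subcluster 8 and up to 242 in 1 nucleus, and its ratio was -0.28 (-1.22 to 0.63) in subcluster 0. It was 2.08 (0.32 to 4.18) in the venous-like subcluster, 1.39 (0.35 to 2.48) in subcluster 3, 1.13 (0.74 to 1.53) in subcluster 4 and 0.78 (0.58 to 0.99) in subcluster 8. PRKG1, the kinase of cyclic GMP, had 1.48 (1.11 to 1.86) and stood at 0.90 outside the gate, and PID1, an adaptor protein, had 1.38 (0.95 to 1.81) and 0.73. With free RNA subtracted PRKG1 was at 4.73 and PID1 at 2.20. PRKG1 stood at only 42.5 CPM in unperfused vessel members, against 238 CPM in unperfused nuclei outside the gate. Subtraction left little of it there, so the 4.73 is not a firm value. Under the other settings PRKG1 lay between 0.85 and 1.64. In nuclei with 3000 or more UMIs PRKG1 was at 0.85, PID1 at 1.46 and PDE3A at 0.72. MGP, an inhibitor of calcification, had 1.03, or 0.45 without its richest nucleus in each library. SYT7, a synaptotagmin, had 260 and 350 UMIs in 213 and 222 nuclei (0.89, 0.65 to 1.13), with at most 6 in a nucleus, and kept 0.84 to 1.12 over the settings. NTN4 (1.02), CACNB2 (0.998), ADGRL1 (0.89) and PDK2 (0.87) completed the list with JUN. CACNB2 was at 0.28 (-0.03 to 0.59) over all members and at -0.48 (-0.56 to -0.40) outside the gate.

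At the other end RN18S had 1579 and 169 UMIs (-2.76, -3.00 to -2.53), with -2.31 in EHD3-positive nuclei and -1.09 outside the gate. GTSF1 (-2.16) and NFE2L3 (-1.75) were at -2.03 and -1.60 outside the gate, and WFDC2 (-1.51) and METTL5 (-1.49) at -1.03 and -1.09. S100A6, a calcium-binding protein, had 223 and 42 UMIs (-1.95, -2.46 to -1.47) and -0.87 outside the gate. CHTOP (-1.34) and SEC61G (-1.33) had -0.69 and -0.53 there. The anion exchanger SLC26A7, a gene of intercalated and tubule cells, had -1.77 and -0.65. With free RNA subtracted, RN18S was at -3.07, GTSF1 at -2.16, S100A6 at -2.14, NFE2L3 at -1.77, WFDC2 at -1.58 and METTL5 at -1.54, while SLC26A7 had no value left. With equal weight for subclusters GTSF1 was at -1.27, S100A6 at -1.09 and CHTOP at -0.81, while NFE2L3 was at -2.14.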

How the data were processed

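The 2 libraries (10x 3' v3.1) were aligned by the authors with Cell Ranger, version 5.0.1 per the submitters' processing notes, to the Ensembl pig reference with reads in introns counted. They deposited raw UMI counts per gene and barcode, not normalized. Barcodes outside the study's limits on nuclei were still present and values were whole, so the counts were taken to precede its filters and its removal of ambient RNA and doublets. The study set limits of 500 to 6000 genes, used here, and 7% mitochondrial UMIs, used as an alternative. Symbols of the deposited annotation were completed for 822 genes from a table of identifiers. No sequence or genome of the build was used here. Values of a few list genes are not reported here.

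The members, the gene lists and the comparisons were chosen with earlier results of these data known. Of 489 genes in 34 lists, 459 are in the files. UMIs were summed over the nuclei of a class and library, divided by their total (CPM) and compared as log2 ratios. CPM intervals are exact Poisson intervals, ratio intervals are exact conditional binomial (Clopper-Pearson) intervals and shares have exact binomial intervals, all at 95%. UMIs of 1 nucleus are not independent, so these intervals are too narrow for genes of few nuclei. No p-value was computed, since nuclei are not replicates. The ratio intervals were tried on simulated independent counts with known changes. That simulation held no nuclei and no differences between kidneys, so it covers counting error alone.

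Members were clustered with scikit-learn 1.9.0 and leidenalg 0.10.2 (1500 variable genes scaled within each library, genes of the rule left out, 15 components, 15 neighbours, resolution 0.5). A subcluster was named where at least 3 markers of 1 vessel list, and no more of another, had a log2 fold over 1 against the other members, with an offset of 5 CPM, and a UMI in at least 10% of its nuclei. Doublets were called with Scrublet in scanpy 1.11.5 on each library and kept, with their removal as an alternative.

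Named genes were the genes of the rule and its markers, the 5 leading genes of each subcluster, the 10 genes with a symbol and the largest ratio in each direction (at least 100 UMIs in the larger sum and an interval without 0), for the EHD3 comparison those ranked by the smaller ratio of both libraries, and list members past the fold or with the most UMIs. Other list members without these limits, such as EHD paralogs, KLF2, KLF4, NOS3, ID1, ID3 and SMAD7 were named after their values were seen, as were vessel members and the settings tried on them. Alternatives were TMM factors (edgeR 4.0.16), size factors (DESeq2 1.42.0), other gates, thinning to 1000 UMIs, subtraction of free RNA, equal weight for subclusters and other minimum counts.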

Additional observations from a re-analysis of the deposited data

Results flagged for a closer look

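Log2 ratios between the conditions were set side by side in EHD3-negative and EHD3-positive endothelial nuclei, as a difference (negative minus positive). Of the 10 genes with the largest differences, 5 in each direction, 7 had ratios of opposite sign in the classes. They stand among 1170 genes with at least 30 UMIs in each of the 4 sums, of which 110 had an interval above and 54 an interval below 0. With 1 library for each condition the difference between the classes was not tested across kidneys.

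The calcium exchanger SLC8A1 had 5535 UMIs in unperfused and 3330 in perfused EHD3-negative nuclei (-0.44, -0.51 to -0.38) and 93 and 218 in EHD3-positive nuclei (0.91, 0.55 to 1.28), a difference of -1.35 (-1.71 to -0.999). In vessel members its ratio was 0.19 (0.11 to 0.27), so the sign of the first value turned with the 334 nuclei of other subclusters. The sodium pump subunit ATP1B1 differed by -1.33 (-1.92 to -0.74), from -0.83 in EHD3-negative and 0.50 (-0.08 to 1.11) in EHD3-positive nuclei, and was at -0.49 in vessel members. LRBA, of vesicle traffic, differed by -1.08 (-1.66 to -0.51), from -0.13 and 0.95, and was at 0.20 in vessel members. PKP4, a plakophilin of cell contacts, differed by -1.07 (-1.54 to -0.60), from -0.17 and 0.90, and was at 0.03 (-0.10 to 0.15) in vessel members.

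PLCB4, a phospholipase, differed by 1.14 (0.48 to 1.80), from 0.37 in EHD3-negative and -0.77 in EHD3-positive nuclei, the latter from 45 and 33 UMIs, and was at 0.52 in vessel members. The ribosomal protein genes RPL28 and RPL29 differed by 1.23 (0.49 to 1.98) and 1.06 (0.32 to 1.81), each with 30 to 34 UMIs in the EHD3-positive sums. RPL28 had 0.91 in EHD3-negative and -0.32 (-1.07 to 0.44) in EHD3-positive nuclei, and RPL29 0.56 and -0.50 (-1.26 to 0.25), so the sign in EHD3-positive nuclei is not settled at this depth. In vessel members RPL28 was at 0.12 (-0.21 to 0.45) and RPL29 at -0.30 (-0.62 to 0.02).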

How the results depend on the processing

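The share of members among nuclei was 14.1% unperfused and 11.5% perfused with a stricter endothelial gate, 3.97% and 5.34% when only nuclei with 3000 or more UMIs could be members, and 21.0% and 19.6% without limits on other lineages. At 3000 or more UMIs members were 90.5% and 88.9% of gated endothelial nuclei. The share was lower in the perfused library under each of these except the limit of 3000 UMIs, where the order turned.

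Genes higher in perfused members (298) numbered 621 without limits on other lineages, 460 with DESeq2 size factors, 160 after thinning, 665 with no minimum of UMIs, 512 with 10 UMIs in each library, 128 without subclusters of other lineages (also without doublets) and 132 without the cycling subcluster too. Lower genes (565) numbered 365 with TMM, 350 with DESeq2, 247 after thinning, 1479 with no minimum and 1032 with 10 UMIs in each library. Genes higher in EHD3-negative than in EHD3-positive nuclei (199) numbered 81 at 3000 UMIs and 86 after thinning, and lower genes (110) 49 and 60.

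Over all members, medians of lists moved at 3000 UMIs to 0.26 for VEGF and angiopoietin, 0.18 for flow sensing, 0.31 for BMP and TGF-beta, 0.31 for caveolae, 0.28 for coagulation and -0.14 for the study's lowered targets. Flow sensing was at 0.11 with TMM, 0.13 with DESeq2 and -0.24 with free RNA subtracted, and coagulation at 0.27 and 0.25 with the other minimum counts. The study's raised targets were at 0.46 with TMM, 0.47 with DESeq2 and 0.19 with equal weight. MRTF-SRF targets were at 0.71 without limits on other lineages and at 0.028, 0.024 and 0.028 without subclusters of other lineages, without cycling too, and without doublets too.

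The sign turned without subclusters of other lineages, with or without doublets, for ADCY5 (-0.12), FBLN1 (-0.087), FHL2 (-0.41), NID2 (-0.24), TPM1 (-0.17) and MECOM (0.75), and the ratios of SLC8A1 (0.19), LRBA (0.20), PKP4 (0.026) and RPL29 (-0.30) also had the other sign in vessel members. Without the cycling subcluster too it turned for FBLN1 (-0.065), FHL2 (-0.36), TPM1 (-0.20), MECOM (0.77) and DIAPH3 (0.23), a gene of that subcluster. With equal weight it turned for NR2F1 (-0.052), COL4A3 (0.33), MECOM (0.36) and VEGFC (-0.019), without doublets for MECOM (0.38), and without limits on other lineages for VEGFC (-0.18) and, over EHD3-positive perfused nuclei, for VIM (-0.090). In vessel members it turned for FBLN5 at 3000 UMIs (-0.022; 0.12 with equal weight) and VEGFC with equal weight (-0.0080). The difference of ratios of CST3 (1.20) was -0.090 at 3000 UMIs and -0.52 in vessel members. The causes were not tested. Of values and counts that answer a comparison, 374 of the results under other settings stayed within the limits set and 43 moved; of single genes 1450 stayed, 395 moved and 28 turned.

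No paired analysis was possible because each condition had 1 library, so no replicate was left out either. Depth was a limit too, as members had medians of 1915 and 2190 UMIs, genes under 100 UMIs over both libraries were not described, and of 9 glomerular markers in the files 3 were.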

Other observations

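Several markers of the proximal tubule had lower ratios in vessel members than in the nuclei outside the endothelial gate. The gluconeogenic enzyme PCK1 stood at 195 and 79.8 CPM in vessel members, a log2 ratio of -1.29 (-1.59 to -1.001), and at 1060.1 and 1113 CPM outside the gate (0.07, 0.05 to 0.09). The organic anion transporter SLC22A8 had -0.79 (-1.36 to -0.24) in vessel members and 0.11 (0.07 to 0.15) outside the gate, and the phosphate transporter SLC34A1 -0.76 (-1.19 to -0.35) and -0.32 (-0.35 to -0.29). Of 6 proximal tubule markers described in vessel members 3 were lower past the fold, beside 7.53% of all genes, and none was above 0. Over all members 1 of 7 was lower, beside 7.75% of all genes, with a median of -0.23, against -0.64 in vessel members. Vessel members leave out subcluster 2, in which PCK1, SLC22A8 and SLC5A12 were raised and which was larger in the perfused library. The ratios in vessel members thus depend on that choice. The rule also limits LRP2 and CUBN in members. Of 3 loop and distal tubule markers described 1 was lower, SLC26A7 (-1.77), while UMOD of the thick limb stood at 235 and 235 CPM (0.00, -0.19 to 0.20). With free RNA subtracted PCK1, SLC22A8 and SLC34A1 had no value left and 1 of the 6 markers was described (0.02). SLC22A8 was at -0.25 with equal weight for subclusters, and SLC34A1 at -0.14 in nuclei with 3000 or more UMIs.

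Among the 10 genes with the largest differences of ratios between EHD3-negative and EHD3-positive nuclei, those with ratios of 1 sign were ZEB2, a transcription factor (1.19, 0.60 to 1.77), and CST3, a protease inhibitor (1.20, 0.56 to 1.85), and in the other direction PLCL1 (-1.02, -1.53 to -0.52). CST3 had 264 and 616 UMIs over all EHD3-negative nuclei and its difference was -0.52 in vessel members.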
